A study of Mus musculus with 39 samples.

Results

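The genes described here encode the glucocorticoid receptor, a related steroid receptor, a pair of FoxO transcription factors and the coregulators these factors recruit to DNA. The 10 genes were taken by symbol from the list *Nr3c1*, *Nr3c2*, *Foxo1*, *Foxo3*, *Med1*, *Ncoa1*, *Ncoa2*, *Crebbp*, *Ep300* and *Ncor1*, all of which were found among the 45706 gene identifiers that every count file held, and no measured value entered their choice. Poly(A) RNA of 39 mouse libraries in 12 groups was sequenced. All mice were C57BL/6 males on chow, and their age was not given in the labels.

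E47 is 1 of the proteins made from *Tcf3*, a helix-loop-helix transcription factor that binds E-boxes, and the question put to each pair of groups was whether losing it alters these genes. E47KO mice lack E47 in the whole body, so no tissue of theirs keeps the protein, and their controls were wildtype (WT) mice. Mice given dexamethasone (Dex, a synthetic glucocorticoid) in the water for 3 weeks, at 10 µg/ml, gave 3 E47KO and 2 WT livers, 2 E47KO and 2 WT epididymal white adipose tissues (WAT), and 3 E47KO and 2 WT quadriceps muscles. Corticosterone (Cort, the main natural glucocorticoid of mice), also for 3 weeks and at 100 µg/ml, gave 4 E47KO and 4 WT livers. Both chronic treatments ended with a glucose tolerance test before sacrifice, and the paper states that mice were fasted overnight for such tests. Untreated livers came from 6 E47KO and 5 WT mice. For the acute treatment, 1 mg/kg Dex was injected 1 h before 3 livers of Albcre/+;E47fl/fl mice and 3 livers of control mice were taken, 1 control being Alb+/+;E47fl/+ and the others Alb+/+;E47fl/fl. Albumin-Cre acts in hepatocytes, so other liver cells of these mice keep E47.

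The glucocorticoid receptor (GR, encoded by *Nr3c1*) waits in the cytoplasm in a chaperone complex, enters the nucleus when it binds hormone and there raises or lowers transcription. In liver it switches on genes of glucose production and of fat handling, and FoxO factors act on several of the same genes when insulin is low, since insulin signalling drives phosphorylated FoxO out of the nucleus. Both kinds of factor work through coregulators: Mediator links them to RNA polymerase, the NCOA proteins and the acetyltransferases CBP and p300 open chromatin, and NCoR1 brings histone deacetylases that close it.

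Each library held 15.5 to 54.6 M (mega) reads counted to genes, and no member had fewer than 107 reads in any library, a total set by *Nr3c2*. Levels are in CPM (counts per mega counts) after TMM scaling, a normalization that sets the bulk of genes level between libraries. Levels of different genes are compared only as CPM per kilobase of exon. The tissues matched their labels by marker genes: summed hepatocyte markers were at 109200 CPM or more in every liver group, adipocyte markers at 12880 to 16410 CPM in WAT, and muscle markers at 141000 to 212100 CPM in muscle. WAT also held 2783 to 5711 CPM of hepatocyte markers. *Tcf3* itself differed between genotypes by −0.15 to 0.23 on the log2 scale with no call, but counts per gene add E47 to the E12 form, so this checks neither the deletion nor the labels. In bulk RNA, fewer cells of a type and less RNA per cell cannot be told apart.

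Among untreated livers, WT replicates 1 and 2 and E47KO replicate 1 stood apart from the other 8 on the first principal component, which held 39.9% of the variance. For 6 of the 10 members these 3 libraries did not overlap the other 8, always lying lower, beside 15.7% of all tested genes that did so (30.2% in either direction). *Nr3c1* was at 59.3 to 75.2 CPM in the 3 and 92.0 to 125.8 CPM in the 8. The coactivator *Ncoa2* was at 37.2 to 43.4 against 59.6 to 76.5 CPM, and *Ep300* at 21.1 to 29.5 against 37.5 to 47.5 CPM. *Med1*, *Ncoa1* and *Ncor1* made up the 6, whereas *Nr3c2*, *Foxo1*, *Foxo3* and *Crebbp* overlapped. Across 13855 genes the difference between these libraries and the others fell with exon length (Spearman's rho −0.38, a description over genes of the same libraries), with a median of −0.24 in the 3293 genes as long as the members (6.47 to 15.6 kb) and 0.29 in 2317 genes under 2 kb. The 3 libraries also held 30.9 to 31.5 M counts against 35.6 to 39 M, and 1.04 to 1.58 CPM of summed muscle markers against 18 to 412 CPM. The library codes in the labels also put these 3 in another number range than the 8, without saying what the code marks. The part of library code, length, depth and muscle RNA in the members' difference was not tested. Since 2 of these libraries were WT and 1 was E47KO, the main results that use untreated livers are given with and without them, and the values without them are those within the code range of the 8. Medians and genotype counts of gene lists, and fold changes of single list genes, are given with them only.

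**Figure D1:**
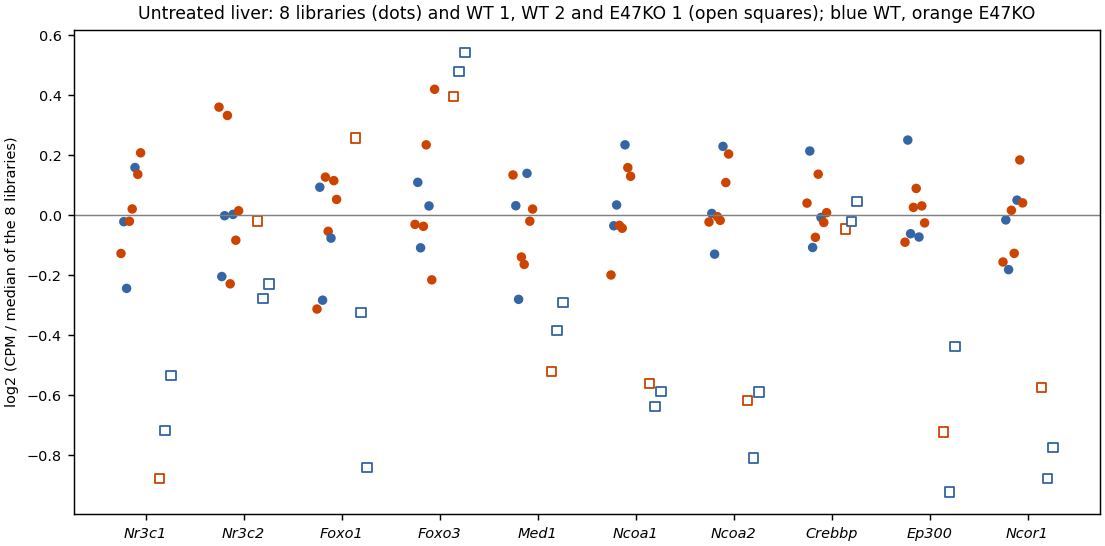
Level of each member in the 11 untreated livers, as log2 of its CPM over the median of the other 8. The 3 libraries that stood apart (WT 1, WT 2 and E47KO 1) are drawn separately from those 8. *Nr3c1*, *Med1*, *Ncoa1*, *Ncoa2*, *Ep300* and *Ncor1* lie lower in the 3 with no overlap, and *Foxo1*, *Foxo3*, *Nr3c2* and *Crebbp* overlap.

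Per kilobase, the highest group mean of any member was that of *Foxo3* in control livers 1 h after Dex (16.3 CPM per kb) and the lowest that of *Nr3c2* in WT WAT (0.37 CPM per kb). *Nr3c2*, which encodes the mineralocorticoid receptor and binds corticosterone as well as aldosterone, also had the widest span, with group means that differed 8.83-fold. *Foxo3* followed at 4.09-fold, *Ncoa2* at 3.31-fold, *Nr3c1* at 3.15-fold and *Ep300* at 3.02-fold. *Foxo1*, *Crebbp*, *Ncoa1* and *Med1* spanned 2.03-fold to 2.3-fold. *Ncor1* was the steadiest, with group means between 7.19 and 12.0 CPM per kb, a span of 1.67-fold.

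*Nr3c1* was highest in muscle at 107.7, 110.8, 114, 123.9 and 129.8 CPM, a mean of 15.3 ± 1.21 CPM per kb (SD, n = 5). The untreated livers came next and reached from 59.3 to 125.8 CPM with a median of 107.3, so that they overlapped every other class but WAT. Dex livers held 83.8 to 96.2 CPM, livers 1 h after Dex 65.7 to 90.6 CPM and Cort livers 64.8 to 82.9 CPM, and neighbours in this order overlapped. WAT was lowest at 38.2, 39.2, 41.0 and 46.6 CPM, below every liver and muscle library. *Nr3c2* had another order: untreated liver (16.5 to 25.7 CPM), muscle (12.2 to 20.1), liver 1 h after Dex (11.5 to 19.8), Cort liver (9.10 to 16.7), Dex liver (5.11 to 9.01) and WAT (2.23 to 2.77 CPM). The Dex livers overlapped none of the other classes, and neither did WAT.

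**Figure D2:**
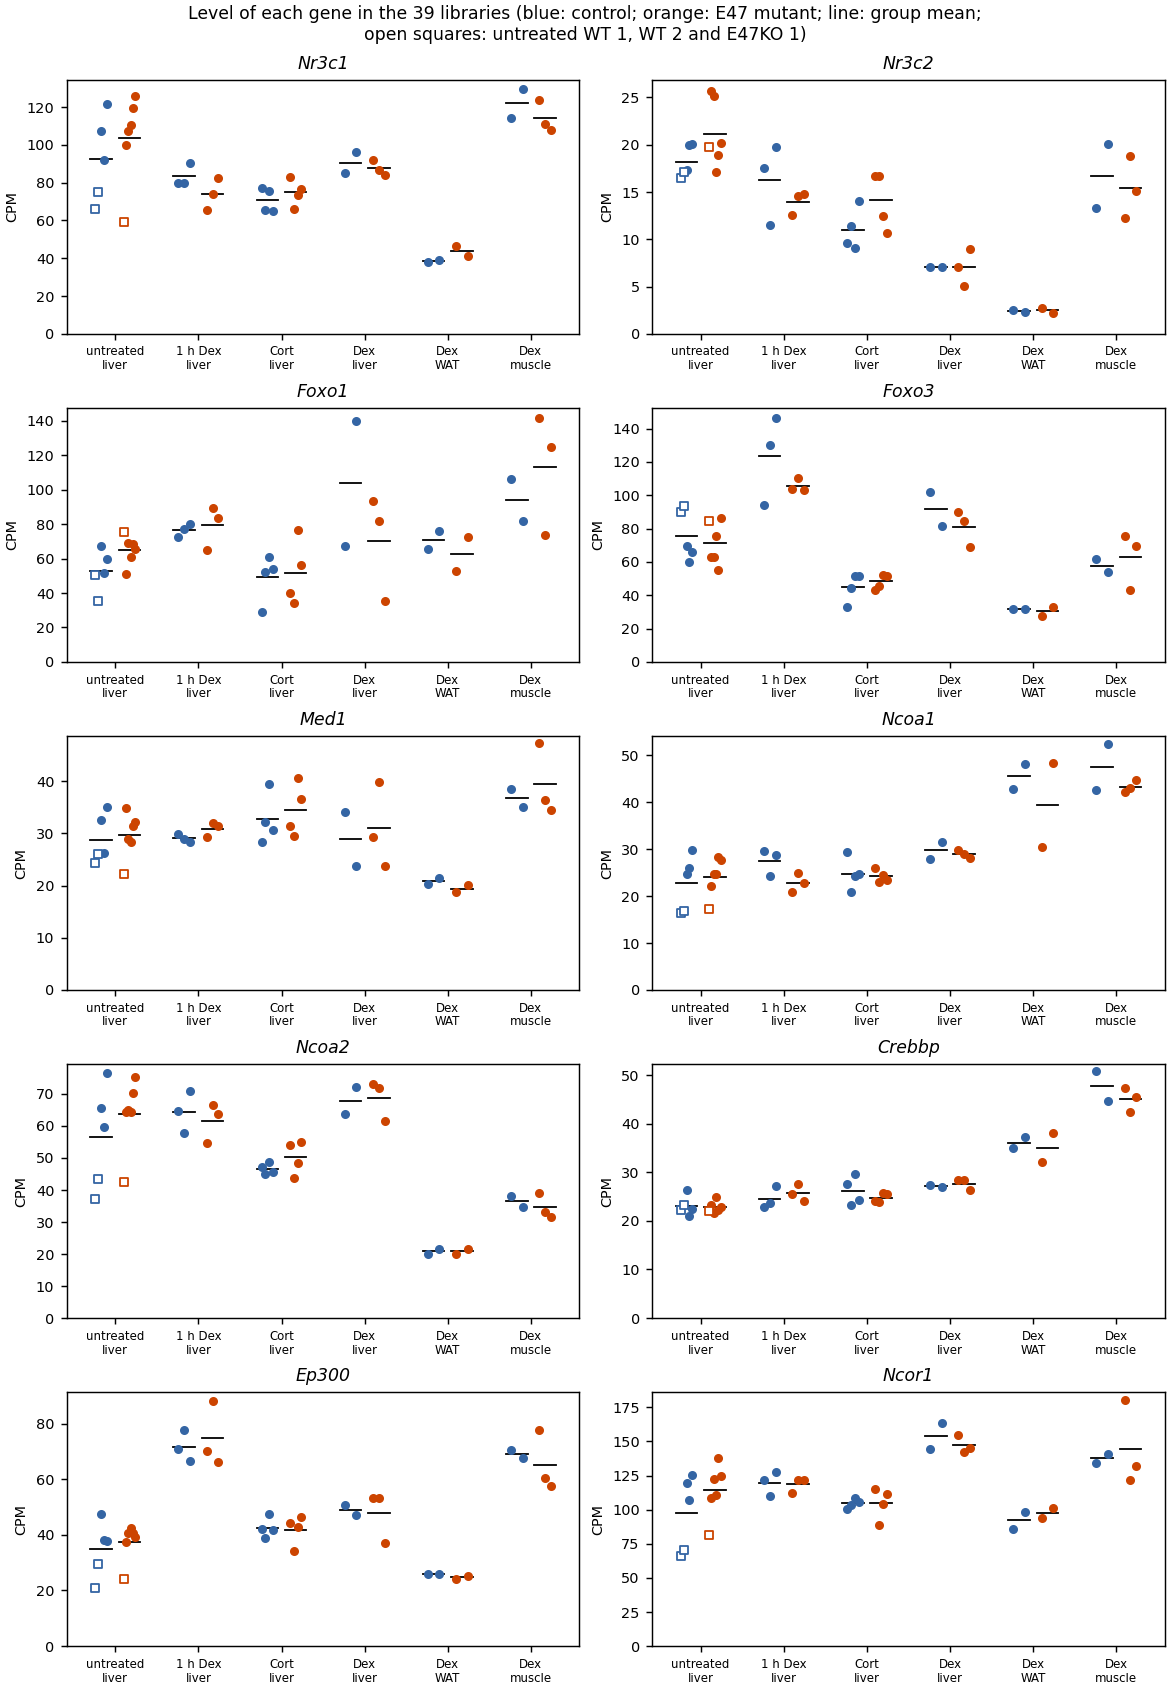
Level of each member in all 39 libraries, in CPM on a linear axis, by tissue and treatment and with E47 mutant and control libraries marked. *Nr3c1* runs from 38.2 CPM in WAT to 129.8 CPM in muscle, and *Nr3c2* is lowest in WAT and next lowest in Dex livers. Mutant and control points overlap for every member in the liver classes and in muscle, and in WAT those of *Nr3c1*, *Med1* and *Ep300* do not.

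*Foxo1*, the main FoxO factor for glucose production in liver, varied most within a class. In Dex livers it was at 67.5 and 140 CPM in WT and at 35.5, 81.7 and 93.1 CPM in E47KO, and in Cort livers it ran from 29.2 to 76.6 CPM over both genotypes. *Foxo3*, its relative with a broad tissue range, was at 94.4 to 146.4 CPM 1 h after Dex, 68.9 to 102.2 CPM in Dex livers, 55.4 to 93.8 CPM in untreated livers, 43.2 to 75.7 CPM in muscle, 33.1 to 52.0 CPM in Cort livers and 27.6 to 32.9 CPM in WAT. Cort livers were thus below every other liver class for *Foxo3*, with no overlap. Of the *Foxo1* exon length, 7.78% is shared with the antisense gene Gm20402, and of that of *Nr3c2* 3.8% with Gm10649. Reads there were not told apart in the levels given, since these counts ignore strand. The strand column of the libraries labelled stranded entered only as an alternative fit.

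Among the coregulators, *Ncoa1* and *Crebbp* were higher in muscle and WAT than in every liver class, apart from 1 WAT library in which *Ncoa1* (30.5 CPM) overlapped the Dex livers. *Crebbp*, which encodes CBP, was at 42.4 to 50.8 CPM in muscle and 32.0 to 38.2 CPM in WAT against 21.0 to 29.7 CPM over all livers. *Ncoa2* went the other way, at 37.2 to 76.5 CPM over all livers, 31.5 to 39.1 CPM in muscle and 20 to 21.7 CPM in WAT, with 1 untreated liver, WT replicate 1, inside the muscle range and all other livers above it. *Ep300*, encoding p300, was highest 1 h after Dex (66.0 to 87.9 CPM) and in muscle (57.7 to 77.7 CPM), classes that overlapped, and lower in all other livers and WAT. *Med1*, the Mediator subunit that nuclear receptors touch, stayed within 18.7 to 47.3 CPM throughout. *Ncor1* was at 142.5 to 163.8 CPM in Dex livers and at 86.0 to 101.3 CPM in WAT, and the untreated livers spread from 66.0 to 137.6 CPM.

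**Figure D3:**
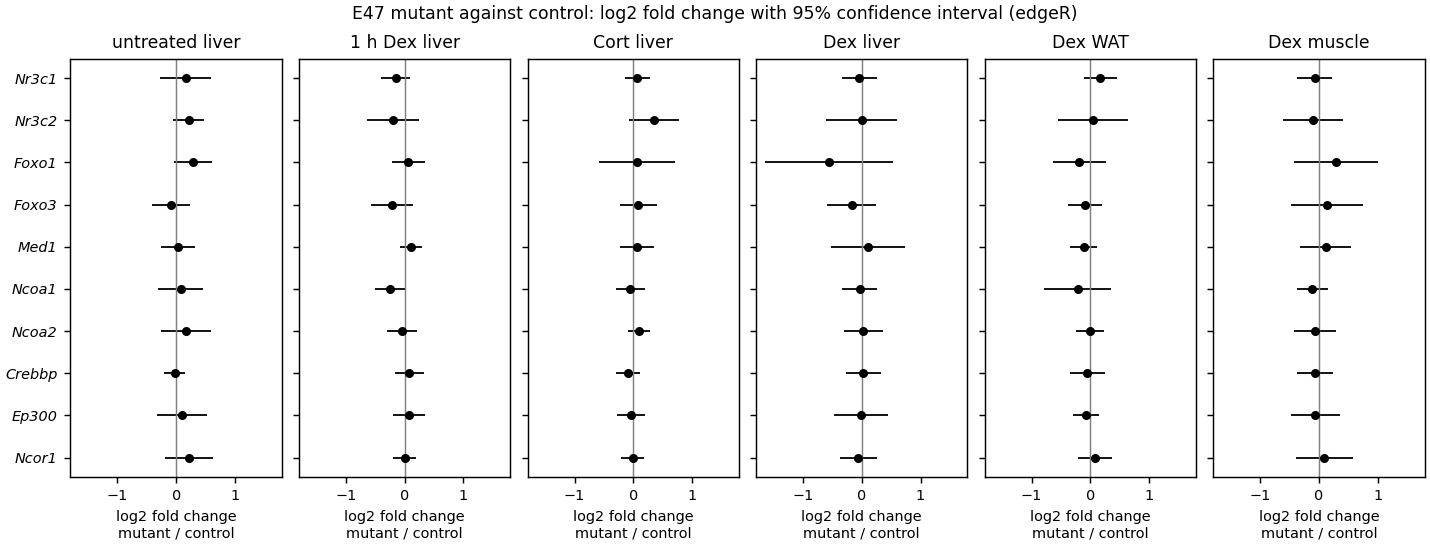
Log2 fold change of each member between E47 mutant and control with its 95% confidence interval from edgeR, in the 6 genotype comparisons. Points lie between −0.55 (*Foxo1* in Dex liver) and 0.35 (*Nr3c2* in Cort liver), and only the interval of *Ncoa1* 1 h after Dex excludes 0.

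Loss of E47 went with no called change in any of the 10 genes. With edgeR (quasi-likelihood F-test, p-values adjusted over all genes by Benjamini-Hochberg), 0 of 10 members passed an adjusted p of 0.05 in Dex liver (background 0.00752% of genes called), Cort liver (0.0274%), 1 h Dex liver (0%), untreated liver (0.0288%, or 0.0141% and again 0 members without the 3 libraries that stood apart), Dex WAT (0%) and Dex muscle (0.0134%). Of these 60 values, 1 had an unadjusted p under 0.05 by edgeR and none by DESeq2, and the smallest adjusted p was 0.602. With so few genes called at all, the count of members says little by itself, and the intervals say more: 58 of 60 lay within a doubling or halving (1 log2 unit) and 38 within 0.5 log2 units. The fold change was higher in the mutant in 28 of 60.

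For *Nr3c1* the log2 fold change was 0.16 (95% interval −0.28 to 0.60) in untreated liver, or 0.07 (−0.17 to 0.31) without the 3 libraries, −0.16 (−0.41 to 0.10) 1 h after Dex, 0.07 (−0.14 to 0.28) after Cort and −0.04 (−0.34 to 0.26) in Dex liver. In WAT the mutants held 41.0 and 46.6 CPM against 38.2 and 39.2 CPM, a difference of 0.17 (−0.11 to 0.45). These values put any genotype difference of *Nr3c1* mRNA in Cort liver between 0.91-fold and 1.21-fold. Averaged over untreated, Cort and Dex livers the difference was 0.06 (−0.17 to 0.30), and 0.03 (−0.10 to 0.16) without the 3 libraries that stood apart. In that average 0 of 10 members passed by edgeR with the 3 libraries (0.0313% of genes) or without them (0.0188%), and 0 had an unadjusted p under 0.05 by edgeR or DESeq2.

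*Nr3c2* in Cort liver had the highest fold change, at 10.7, 12.5, 16.7 and 16.7 CPM in E47KO against 9.10, 9.57, 11.4 and 14.01 CPM in WT. The groups overlapped, and the difference of 0.35 (−0.08 to 0.78) had an adjusted p of 0.602 by edgeR. *Foxo1* in Dex liver had the lowest, −0.55, with an interval as wide as −1.64 to 0.53, the WT library at 140 CPM and the E47KO library at 35.5 CPM lying far from the others. *Ncoa1* 1 h after Dex, at 20.9, 22.9 and 24.9 CPM in mutants and 24.4, 28.7 and 29.7 CPM in controls, fell short of a call (−0.26, interval −0.51 to −0.0019, adjusted p = 1 by edgeR).

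Mutant and control libraries overlapped for every member in all liver comparisons and in muscle, where 0.446% (untreated), 6.36% (Cort), 8.5% (1 h Dex), 15% (Dex) and 15.6% (muscle) of tested genes did not overlap. In WAT, with 2 against 2, 3 of 10 members did not overlap, *Nr3c1* being higher and *Med1* and *Ep300* lower in E47KO, a share near the 32.6% of all genes. The genotype effect was also compared between settings. None of the 10 members differed in effect between Cort and untreated (background 0.00626%), Dex and untreated (0%) or Dex and Cort livers (0%), nor between liver and muscle (0%), liver and WAT (0%) or WAT and muscle (0.011%), and no member reached an unadjusted p under 0.05 in these comparisons by edgeR or DESeq2. Without the 3 libraries the differences against untreated livers again gave 0 calls among members, with 0% of genes called in both.

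The partners and targets of these factors gave the same counts. In 8 lists (GR chaperones, other nuclear receptors and liver factors, the FoxO family with the insulin pathway, the other Mediator subunits, coactivators, corepressors, GR target genes and FoxO target genes), 0 of 138 tested genes were called between genotypes by edgeR in Dex, Cort, 1 h Dex and untreated liver, 0 of 134 in WAT and 0 of 132 in muscle. The chaperone list also holds *Hsd11b1*, which encodes no chaperone. Some genes, such as *Fkbp5* and *Sgk1*, are in more than 1 list. At an unadjusted p under 0.05 by edgeR the counts were 8, 12, 6, 8, 7 and 10. Such a p was reached by 409 of 13300 genes in Dex liver, the fewest, and 1435 of 14588 in Cort liver, the most. DESeq2 called 1, 2, 0, 0, 1 and 1 list genes, and 23, 266, 6, 11, 37 and 92 of all genes. Whether the lists exceeded the shares of all genes was not tested. The 15 GR target genes had a median log2 fold change of −0.42 in Dex liver, −0.14 in Cort liver, 0.18 at 1 h and 0.30 in untreated liver, beside medians over all genes between −0.00529 and 0.00343. The 0.30 includes the 3 libraries that stood apart, and no median without them was taken. Over all genes this untreated genotype difference followed exon length with them (Spearman's rho 0.268) and not without them (0.00142).

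E47 and its relatives bind the E-box, spelled CANNTG on either strand, of which E proteins prefer the form CAGGTG. RefSeq promoter windows of GRCm38.p6, each 300 bases long and reaching from upstream of the start site to just past it, were given for 8 members with 9 entries, *Ncor1* having 2. None of the 9 held CAGGTG on either strand, which 20.2% of all 32851 windows did, and 4 of 9 held a CANNTG against 72.3% of all. The members' windows had 61.3 to 84.7% GC, apart from the *Ncor1* entry with an E-box (38.3%), beside a median of 52.7% for all windows. The part of GC content in these shares was not tested. The other *Ncor1* entry, nearer the gene's 5′ end, held no E-box. The 4 windows are shown because they hold the members' only E-boxes in these stretches. The E-box is in capitals and each sequence is given 5′ to 3′ on the gene's own strand.
*Nr3c2*, chr8:76902179-76902208, plus strand, E-box at −139 from the start site: gaactttctggaCATGTGacccggtttaaa
*Foxo1*, chr3:52268132-52268161, plus strand, at −193: gagactcagaaaCACTTGagaattacagaa
*Med1*, chr11:98192887-98192916, minus strand, at 3: gaccgagccctaCAGATGctggagcgcctc
*Ncor1*, chr11:62438736-62438765, minus strand, at −246: tagaCAGTTGtgagctgctatgtggtgctg
None of the 9 held the FoxO motif TGTTTAC, found on either strand in 3.65% of windows, or the full palindromic GR element (AGAACA followed 3 bases later by its reverse complement), found in 0.00913%. A motif in such a window is a match of letters and no binding was measured, and control regions outside these windows were not examined.

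Across treatments, the mineralocorticoid receptor gene was called in all 4 comparisons of 3 weeks of steroid. Compared with untreated livers of the same genotype, *Nr3c2* was lower after 3 weeks of Dex in WT (log2 −1.35, 95% interval −1.84 to −0.87, adjusted p = 0.000101) and in E47KO (−1.57, −1.98 to −1.16, adjusted p = 1.1e-06), and lower after Cort in WT (−0.73, adjusted p = 0.0024) and in E47KO (−0.57, adjusted p = 0.0084), all by edgeR. Library by library, the Dex livers lay at 7.04 and 7.10 CPM in WT and at 5.11, 7.07 and 9.01 CPM in E47KO, below the lowest untreated liver at 16.5 CPM. Without the 3 untreated libraries the values were −1.43, −1.59, −0.81 and −0.61, all called. Drug, library kit, sequencing run, the glucose tolerance test with its overnight fast and the day of sacrifice differed together between these groups. These cannot be told apart, also for the target genes and lists below. All 5 treatment comparisons draw on the same untreated livers.

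**Figure D4:**
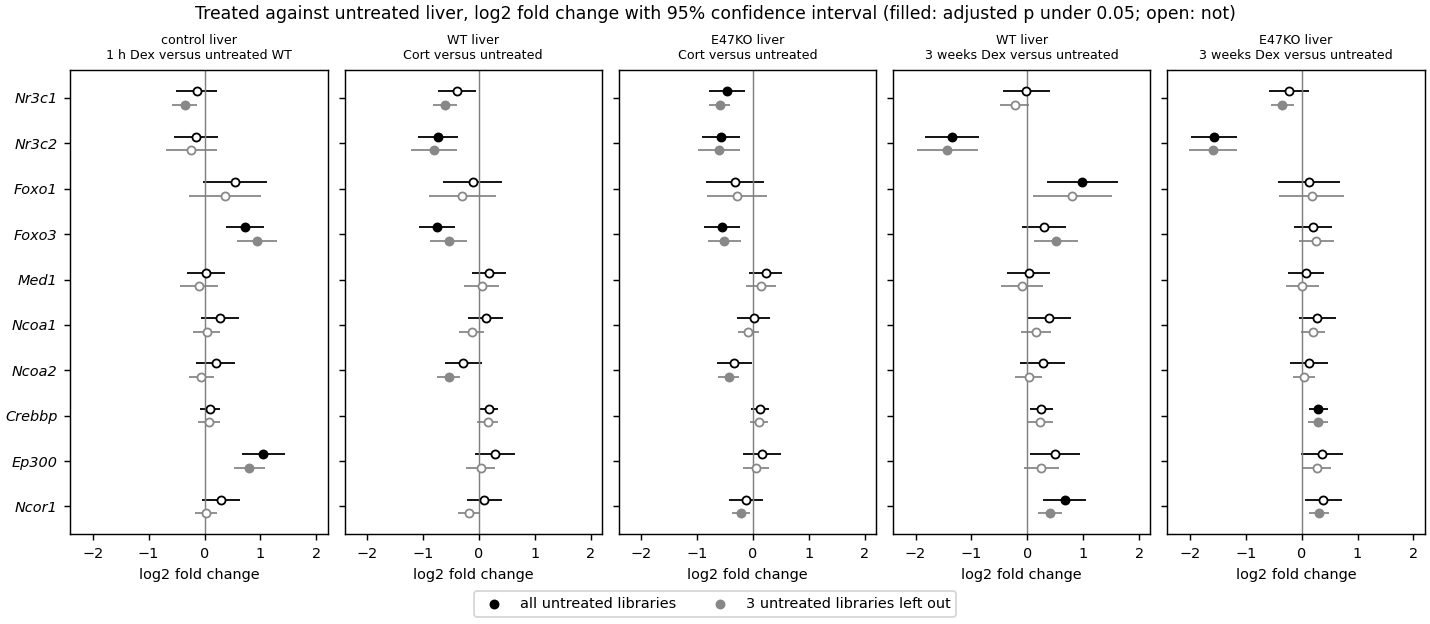
Log2 fold change of each member between treated and untreated livers with its 95% interval from edgeR, in 5 comparisons, with all untreated libraries and without the 3 that stood apart. *Nr3c2* lies to the left after 3 weeks of Dex (−1.35 and −1.57) and of Cort, *Foxo3* to the left after Cort and to the right 1 h after Dex, and *Ep300* to the right 1 h after Dex (1.05).

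After Cort, 2 of 10 members were called in WT (33.2% of genes called) and 3 in E47KO (38.9%), shares at or below the background. *Foxo3* fell in both, by 0.75 on the log2 scale in WT (edgeR adjusted p = 0.000862) and by 0.56 in E47KO (0.00548), which is 0.60-fold and 0.68-fold. In WT, Cort livers held 33.1, 44.5, 51.3 and 51.3 CPM of *Foxo3* and untreated livers 59.7 to 93.8 CPM, without overlap. *Nr3c1* fell by 0.47 in E47KO (adjusted p = 0.0225), a call lost without E47KO Cort replicate 2 (−0.42, adjusted p = 0.074) or replicate 3 (−0.46, adjusted p = 0.0517), and differed by −0.39 in WT (adjusted p = 0.0717). The 3 libraries that stood apart decided this gene: without them *Nr3c1* fell by 0.61 in WT (adjusted p = 0.000141) and by 0.60 in E47KO (adjusted p = 2.19e-05), *Ncoa2* was also called in both (−0.54 and −0.44) and *Ncor1* in E47KO (−0.21), so that the counts rose to 4 and 5 while the background was 33.4% and 44.6%. Leaving out untreated WT replicate 1 alone gave 4 in WT.

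After 3 weeks of Dex, 3 of 10 members were called in WT (31.9% of genes) and 2 in E47KO (37.8%), with *Nr3c2* in both. *Nr3c1* was not called in either (−0.02, −0.44 to 0.40, and −0.23, −0.59 to 0.13), and without the 3 libraries it was lower in E47KO (−0.35, adjusted p = 0.00816). *Foxo1* rose by 0.98 in WT (0.34 to 1.62, adjusted p = 0.017). That call rested on WT Dex replicate 2 at 140 CPM, without which the value was 0.36 (adjusted p = 0.566) and only 1 member passed, and it was also lost without the 3 untreated libraries (0.81, adjusted p = 0.076). *Ncor1* rose by 0.67 in WT (adjusted p = 0.00755) and, without the 3 libraries, by 0.40 in WT and 0.31 in E47KO (adjusted p = 0.0058 and 0.00615), though leaving out WT Dex replicate 2 alone ended the WT call (0.58, adjusted p = 0.106). *Crebbp* rose by 0.30 in E47KO (adjusted p = 0.00687) and was at 0.25 in WT (adjusted p = 0.0605). Leaving out untreated WT replicate 3 raised the WT count to 5. Without the 3 libraries the counts were 3 and 4, beside 33.1% and 42.5% of genes.

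At 1 h after Dex, the control livers set against untreated WT livers gave 2 calls of 10 (20.4% of genes). *Ep300* was at 66.5, 70.9 and 77.7 CPM against 21.1 to 47.5 CPM, without overlap, and rose by 1.05 (0.66 to 1.43, edgeR adjusted p = 0.000289) or 2.06-fold. *Foxo3* was at 94.4, 130.2 and 146.4 CPM against 59.7 to 93.8 CPM and rose by 0.72 (0.38 to 1.06, adjusted p = 0.00322) or 1.65-fold. Without the 3 libraries both held (0.80 and 0.93, adjusted p = 0.000247 and 0.000686), *Nr3c1* was called lower as well (−0.36, adjusted p = 0.029), and 17.3% of genes were called. The control mice carried floxed alleles, which the untreated WT mice did not, so that strain and run differ here beside the drug and cannot be told apart from it.

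Targets of GR were counted in the same comparisons, where 31.9% (WT Dex), 37.8% (E47KO Dex), 20.4% (1 h), 33.2% (WT Cort) and 38.9% (E47KO Cort) of all genes were called in either direction, and the other lists were set beside the same shares. Of the 15 GR target genes, 9 rose and 0 fell in WT after 3 weeks of Dex, 7 and 0 in E47KO, and 9 and 1 at 1 h, against 4 and 0 (WT) and 2 and 1 (E47KO) after Cort. Without the 3 libraries these counts were 8 and 0, 7 and 0, 7 and 0, 4 and 0, and 3 and 1. Their median log2 fold change was 1.59, 0.81, 1.51, 0.41 and 0.19, beside medians of all genes between −0.04 and 0.01. *Cdkn1a*, a cell cycle inhibitor, was higher in all 5, by 6.90, 5.80, 7.05, 5.21 and 3.64, and *Sgk1*, a kinase that phosphorylates FoxO factors, rose by 3.10 at 1 h and by 1.98 and 1.41 after 3 weeks of Dex.

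FoxO targets were called in both directions. Of 16, 5 rose and 2 fell in WT Dex, 4 and 3 in E47KO Dex, and 5 and 0 at 1 h, whereas 1 rose and 4 fell in WT Cort and 0 rose and 5 fell in E47KO Cort. Called were thus 43.8%, 43.8%, 31.2%, 31.2% and 31.2% of them, which after Cort is below the share of all genes. The counts without the 3 libraries were 5 and 1, 4 and 3, 6 and 0, 1 and 4, and 0 and 6. *Igfbp1*, a secreted insulin-like growth factor binding protein, rose by 6.11 and 4.85 after 3 weeks of Dex and by 4.85 at 1 h, and *Ccng2*, a cyclin, by 2.72, 2.29 and 2.35. *Fbxo32*, a ubiquitin ligase subunit, fell by 1.37 in E47KO Cort livers. The difference between the steroids was not tested, since dose, kit and run differed too.

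In the other lists, 12 of 15 genes of the chaperone list (*Hsd11b1* among the 15) rose and 0 fell in E47KO Cort livers (80%). In WT Cort livers 5 rose and 0 fell (33.3%). Without the 3 libraries these became 12 and 7. After 3 weeks of Dex 2 rose and 0 fell in WT (13.3%) and 3 and 0 in E47KO (20%), and 4 and 0 at 1 h (26.7%). Between Cort and untreated livers, 0 of 139 tested genes of the lists were called for a different genotype effect by edgeR. Of 19 other coactivators, 8 rose and 3 fell in WT Cort and 9 and 2 in E47KO Cort, 8 and 2 and then 9 and 3 after 3 weeks of Dex, and 5 and 2 at 1 h, that is 36.8 to 63.2% of them. Leaving out the 3 libraries, the total at 1 h went from 7 to 4, with 2 and 2. *Ppargc1a*, the coactivator of gluconeogenic genes, rose by 2.59 and 1.88 after 3 weeks of Dex, and *Kat2b*, an acetyltransferase, fell by 0.65 in both genotypes after Cort. Of the 31 other Mediator subunits measured, between 7 and 10 were called in each comparison in mixed directions (22.6 to 32.3%). When the 3 libraries were left out, 5 rose and 7 fell in WT Cort (5 and 2 with them), 8 and 6 in E47KO Cort (7 and 2) and 9 and 4 in E47KO Dex (7 and 3). Among the Mediator genes called were *Med15* (0.49 and 0.71 after Cort), *Med19* (−0.89 and −0.88 after Dex) and *Med13* (1.06 at 1 h). Of the corepressors 2 to 5 of 15 were called (13.3 to 33.3%, beside 20.4 to 38.9% of all genes), or 3 to 6 without the 3 libraries. The lowest share, 13.3% in WT Cort, stood against 33.2% of all genes there. *Hdac3*, the deacetylase that NCoR1 binds, fell by 0.68 in WT Dex. Of 17 FoxO family and insulin pathway genes 3 to 8 were called (17.6 to 47.1%), and in WT Cort 3 higher and 0 lower became 0 higher and 2 lower without the 3 libraries. Of 15 other nuclear receptors and liver factors 2 to 10 were called (13.3 to 66.7%), or 3 to 10 without them.

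After Dex, the 3 tissues differed in most genes, so calls of members are read against a high background. Between liver and muscle 8 of 10 were called (76.4% of genes), between liver and WAT 9 (75.4%), and between WAT and muscle 9 (77.3%). Both liver and muscle were taken from 3 of the mice. *Nr3c1* was lower in liver than in muscle (−0.53, −0.72 to −0.34, edgeR adjusted p = 9.67e-05) and higher than in WAT (1.06, 0.86 to 1.26, adjusted p = 3.87e-07), and lower in WAT than in muscle (−1.59, adjusted p = 9.48e-09). *Nr3c2* followed the same order with wider steps, −1.31, 1.47 and −2.78. *Ncoa2* was highest in liver (0.82 over muscle, 1.66 over WAT), and *Crebbp* lowest there (−0.88 and −0.43), as was *Ncoa1* (−0.75 and −0.58).

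The members without a call were *Foxo1* and *Ncor1* (−0.03) between liver and muscle, *Foxo1* between liver and WAT, and *Ncoa1* (−0.17) between WAT and muscle. *Foxo1* was at −0.40 between liver and muscle and 0.30 between liver and WAT, with a value of −0.70 between WAT and muscle at an adjusted p of 0.0497, lost when any of 8 of the 9 libraries was left out and with the mouse as a random block in limma (−0.68, adjusted p = 0.0548). *Foxo3* in liver against muscle (0.40, adjusted p = 0.033) lost its call without 5 of the 10 libraries. *Med1* (−0.47, adjusted p = 0.0155) lost its call without WT liver replicate 2 against muscle, and its value against WAT (0.52, adjusted p = 0.0113) without WT liver replicate 1.

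The size and sign of these tissue differences depend on what is held level between tissues. Under TMM the median of all genes was −0.11, −0.19 and 0.25 in the 3 comparisons, but with library size alone it was −0.10, −0.98 and 1.05, and the share of calls that were higher went from 44.8% to 23% (liver against WAT) and from 56.3% to 76.5% (WAT against muscle). The count of called members then went from 9 to 6 between liver and WAT and from 9 to 5 between WAT and muscle. Between liver and WAT, *Foxo1* (−0.48), *Med1* (−0.27) and *Ncor1* (−0.18) turned lower in liver without a call, and *Ep300* went from 0.88 to 0.09 (adjusted p = 0.601). Between WAT and muscle, *Ncoa1* (0.63, adjusted p = 0.000174) and *Crebbp* (0.35, adjusted p = 0.00807) turned higher in WAT with a call and *Foxo1* (0.09) and *Ncor1* (0.16) without one, while *Foxo3* (−0.22, adjusted p = 0.26), *Med1* (−0.19, adjusted p = 0.361) and *Ncoa2* (−0.04, adjusted p = 0.754) lost theirs. The steroid receptors *Nr3c1* and *Nr3c2* kept direction and call in all 3 comparisons. Relative to the median of all genes, the 30 values of the members differed by at most 0.01 between both scalings and 0 changed sign. This follows from the subtraction, since rescaling a library moves all its genes alike, and is no check of the values. *Nr3c1* was at −0.42, 1.25 and −1.84 from that median under TMM, *Ncor1* at 0.80 and *Med1* at 0.71 between liver and WAT, and *Crebbp* at −0.71 between WAT and muscle.

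The balance between relatives within a library does not depend on such scaling. Ratios of 4 pairs of genes were compared between the 3 tissues after Dex by exact two-sided permutation tests, 12 in all, and each differed after Benjamini-Hochberg adjustment over the 12 (adjusted p 0.0212 to 0.0476). No such share was counted for other pairs of genes. Of single genes 75.4 to 77.3% were called between these tissues, so the count of 12 does not set these pairs apart. Permuting ignored that some liver and muscle libraries shared a mouse (3 mice), which these p-values do not account for. Per kb, *Nr3c1* mRNA was above *Nr3c2* mRNA in every library. *Nr3c1* was 7.84 to 14.3 times *Nr3c2* in Dex liver, 12.8 to 15.5 times in WAT and 4.95 to 8.55 times in muscle. In untreated livers it was 2.53 to 5.45 times, which did not overlap the Dex livers. *Ncoa1* against *Ncoa2* was the sharpest contrast, with medians of 0.80 in liver, 2.36 in muscle and 3.98 in WAT and no overlap between any pair of tissues.

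*Foxo1* against *Foxo3* had a median of 0.85 in liver, 1.51 in muscle and 1.86 in WAT, and *Crebbp* against *Ep300* 0.57, 0.74 and 1.48. Thus p300 mRNA was above CBP mRNA per kb in every liver and muscle library of the Dex mice and below it in every WAT library. *Ncoa1* lay below *Ncoa2* in all Dex livers (0.74 to 0.83) and above it in all muscles and WAT. Groups did not overlap in 8 of the 12 tests, a count that also has no share of other gene pairs beside it. The 3 weakest of the other 4 lost their call when libraries were left out in turn: *Nr3c1* against *Nr3c2* in liver and WAT without 11 of the 14 libraries (adjusted p up to 0.107), *Crebbp* against *Ep300* in liver and muscle without 7 (up to 0.0857) and *Foxo1* against *Foxo3* in liver and muscle without 6 (up to 0.0571). The 14 include libraries of the tissue outside each comparison, which act only through the adjustment over the 12 tests. Fewer libraries also raise the lowest p that an exact test can reach. A lost call therefore does not by itself show that the ratio rested on that library.

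**Figure D5:**
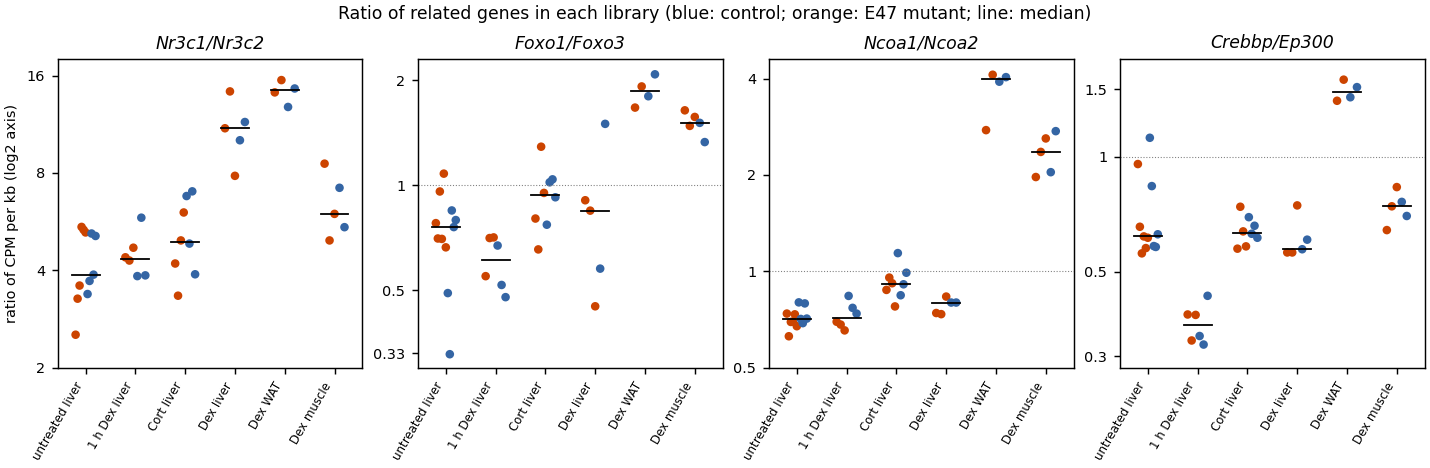
Ratio of CPM per kb between relatives in each library, on a log axis, for liver, WAT and muscle after 3 weeks of Dex and for the other livers. The *Ncoa1* to *Ncoa2* ratio lies below 1 in Dex livers (median 0.80) and above 1 in muscle (2.36) and WAT (3.98), and the *Nr3c1* to *Nr3c2* ratio is lower in untreated livers (median 3.88) than in Dex livers (11).

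Over the 12 group means, the genes whose log2 CPM ran most like that of *Nr3c1* among 18659 were *Eif2ak1* (Pearson's r 0.98), *Npc1* (0.98), *Cfap97* (0.98), *Ankrd28* (0.97) and *Mapk8* (0.97). Among the members, *Med1* (0.85) and *Nr3c2* (0.84) came closest, followed by *Ep300* (0.69), *Ncor1* (0.68), *Foxo3* (0.62) and *Ncoa2* (0.62), while *Foxo1* (0.38), *Crebbp* (0.03) and *Ncoa1* (−0.15) ran least like it. These 12 points share tissues, runs and depth, and 8 of them are livers, so the coefficients describe the groups and carry no test.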

How the data were processed

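Poly(A) RNA was sequenced in 39 mouse libraries. The authors deposited whole read counts per gene for each library, and their notes name STAR 2.4.2a, HTSeq and DESeq2, with reads mapped to mm10. Libraries of the Dex-watered mice came from an unstranded kit and all others were labelled stranded, so the column of counts that ignores strand was used in every library. The Cort libraries split 50.1% by strand against 96.9 to 97.7% in the other labelled stranded libraries. Entries that name no gene, 20.8 to 36.8% of all entries in a library, were left out. No column belonged to other samples. Symbols came from the GENCODE M21 annotation of GRCm38, which matched 45143 of 46078 identifiers, and gene positions and exon lengths (union of exons) from the same source.

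Counts were tested with edgeR 4.0.16 in R 4.3.3 (filterByExpr, TMM, glmQLFit, glmQLFTest), each genotype comparison within its own experiment, averages over livers and differences in genotype effect over the 24 livers of E47KO and WT mice, treatments over all 30 livers and tissues over the Dex-watered mice, with Benjamini-Hochberg adjustment over all genes and a threshold of 0.05. Intervals are 95% intervals of the fit. Ratios between relatives (0.5 added to each count) were compared by exact two-sided permutation. DESeq2 1.42.0, RLE scaling, no filter, library size alone, the strand column, limma 3.58.1 (voom, with the mouse as random block), the replicate number and the range of animal numbers as covariates, and leaving out libraries were the alternatives, of which library size alone and leaving out 3 untreated libraries together were chosen after seeing the data. The tests were checked on simulated counts. In all 53 pairs of replicates the counts lay further apart than sampling alone gives (14.5 to 229.7 for chi-square over its degrees of freedom), and each library entered as its own sample. By their animal numbers the libraries of a group came from separate mice, and 3 mice gave liver and muscle. The members and lists were chosen with earlier results of these data known. Named were all members, *Tcf3*, up to 10 genes of the lists per comparison with the smallest adjusted p, and the 5 genes most like *Nr3c1*. Replicate numbers were not taken to pair mice, since not every pair of an experiment correlated above 0.1. The intervals cover counting error and the spread between mice.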

Additional observations from a re-analysis of the deposited data

Results flagged for a closer look

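Sets of 1 gene, a member or *Tcf3*, in 1 group of 4 or more libraries were scanned. Among these 44, 2 held a library far from the others, where chance flags about 1 in 20 sets. *Ep300* in untreated E47KO replicate 1 was at 24.19 CPM, the other 5 libraries of that group being at 37.5 to 42.46 CPM. *Ncoa2* in the same library was at 42.54 CPM, with the others at 64.24 to 75.16 CPM. This is the E47KO library among the 3 untreated livers that stood apart over all genes, and its values lay within those of the others of that set for *Ep300* (21.1 to 29.5 CPM) and *Ncoa2* (37.2 to 43.4 CPM).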

How the results depend on the processing

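No alternative called any member between genotypes: 0 of 2160 values of the members passed, the smallest adjusted p being 0.0701, and leaving out libraries in turn gave 0 in every such comparison. Over all comparisons, 3326 of 3400 alternative values of the members stayed on their side of the threshold (265 of them, uncalled in either fit, changed sign), 30 lost the call, 38 gained it and 6 turned with a call in at least 1 of the fits. Without the 3 untreated libraries that stood apart, the counts of called members after Cort were 4 in WT (2 with all libraries) and 5 in E47KO (3), and 4 in E47KO after Dex (2). With the replicate number as a block they were 6 in WT (3) and 4 in E47KO (2) after 3 weeks of Dex and 4 (2) at 1 h. The numbers did not pair the mice (correlations of same-numbered libraries −0.45 to 0.76), and no other count of members moved beyond 1.5 times under that block, which also ended the call of *Nr3c1* in E47KO Cort. E47KO and WT in WAT share only 1 number, so that no such fit was made there, and the ratios were not paired. With the mouse as a random block the tissue counts were 8, 9 and 8. Without a filter on low counts E47KO Dex fell to 1. Library size alone gave 5 (9) between WAT and muscle and turned *Med1* (−0.27), *Ncor1* (−0.18), *Foxo1* (−0.48) and *Tcf3* (−0.722) between liver and WAT, and *Foxo1* (0.0913), *Ncoa1* (0.633), *Crebbp* (0.346) and *Ncor1* (0.158) between WAT and muscle. Relative to the median of all genes, which this scaling shifts along with the members, their values moved by at most 0.01, which follows from the subtraction. Leaving out 1 library at a time gave 2 to 4 in WT Cort (4 without untreated WT replicate 1), 2 to 4 in E47KO Cort, 1 to 5 in WT Dex (1 without WT Dex replicate 2, 5 without untreated WT replicate 3), 2 to 3 in E47KO Dex, 2 at 1 h, 7 to 8, 8 to 9 and 8 to 9 between tissues and 9 to 12 for the ratios. Counts over all genes moved far more in the genotype comparisons, up to 62 without the filter (1) in Dex liver and, by DESeq2, 266 (4) in Cort liver, 6 (0) at 1 h, 11 (4) in untreated liver, 37 (0) in WAT (up to 333 with 1 library left out) and 92 (2) in muscle, and up to 40 (5) in the average over livers with animal-number range as covariate. The differences in genotype effect reached 15 (1), 2 (0) and 1 (0) between livers and 28 (0), 6 (0) and 47 (2) between tissues. At 1 h after Dex, depth was 15.5 to 18.1 M counts.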
